A study of Mus musculus with 6 samples.

Results

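The BCL2 family genes Bcl2, Bcl2l1, Bcl2l2, Mcl1, Bak1, Bok, Bcl2l11, Bid, Bik and Bad were taken by name from the deposited gene table and from 5 deposited tables of splicing events. They are 10 of the 55331 genes in the gene table, and 10 of the 61715 splicing events carry their symbols. RNA came from crypt cells of the small intestine of C57BL/6 mice aged 60 days, with 3 libraries from WT mice and 3 from PTBP1_KO mice. WT mice carried floxed Ptbp1 alleles (Ptbp1f/f) and no Cre. PTBP1_KO mice carried the same floxed alleles with Vil-creER+/-, a tamoxifen-activated Cre under villin control, which acts in the intestinal epithelium and not in the other cells of the gut wall. WT and PTBP1_KO mice alike were given tamoxifen (100 mg/kg) on 2 days and were sampled 20 h after the last dose, so the drug and the floxed alleles are common to both groups.

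BCL2 family proteins set whether the outer mitochondrial membrane stays closed. The survival proteins BCL-2, BCL-xL, BCL-W and MCL-1 hold the pore-forming proteins BAK and BAX in check. BOK is a further pore former. The BH3-only proteins BIM, BID, BIK and BAD bind survival proteins or activate BAK and BAX through a short helix, the BH3 domain. Pore formation releases cytochrome c and starts the caspase cascade. Several of these genes are spliced into forms with different activity, and PTBP1, a pyrimidine-tract binding protein that represses many exons, is absent or low in neurons, where a microexon of Bak1 is included.

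The BH3 domain is what all 10 genes share. A core of a leucine codon, 3 codons, a glycine codon and an aspartate codon was searched on the coding strand of the longest coding sequence with a CCDS tag (a consensus coding sequence) in GENCODE M21, on mm10. It occurred once in 8 of the 10 genes. The other two, Bcl2l2 and Bad, each held 1 match when methionine was allowed for the leucine and serine for the glycine. The strict core is not specific to the family, since 2699 of 20338 genes with a CCDS sequence held it, which is 13.3%. The relaxed core was searched only where the strict one was absent, and its share over all genes was not computed. The core is shown here, in capitals with 15 coding bases on each side, because the alternative segments described further on lie on one side of it or hold it. Coordinates are those of the capitals.
Bcl2, chr1:106712584-106712601, minus strand: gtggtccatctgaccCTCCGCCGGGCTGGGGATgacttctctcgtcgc
Bcl2l1, chr2:152829706-152829723, minus strand: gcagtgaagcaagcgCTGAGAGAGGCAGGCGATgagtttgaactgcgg
Bcl2l2, chr14:54884517-54884534, plus strand: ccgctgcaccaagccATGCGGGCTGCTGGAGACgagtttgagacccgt
Mcl1, chr3:95659436-95659453, plus strand: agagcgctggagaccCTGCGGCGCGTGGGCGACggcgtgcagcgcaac
Bak1, chr17:27022540-27022557, minus strand: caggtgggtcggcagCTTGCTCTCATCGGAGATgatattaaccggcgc
Bok, chr1:93686657-93689161, plus strand: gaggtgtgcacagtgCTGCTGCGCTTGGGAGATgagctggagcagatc
Bcl2l11, chr2:128147150-128147167, plus strand: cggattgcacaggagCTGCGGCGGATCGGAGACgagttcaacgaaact
Bid, chr6:120897298-120897315, minus strand: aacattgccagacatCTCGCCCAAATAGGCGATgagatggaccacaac
Bik, chr15:83543084-83543101, plus strand: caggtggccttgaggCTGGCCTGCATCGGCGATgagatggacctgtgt
Bad, chr19:6950792-6950809, plus strand: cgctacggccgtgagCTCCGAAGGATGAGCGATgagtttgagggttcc
The core of Bok is split by an intron between exons 2 and 3, and the other cores lie in 1 exon each. It begins at residue 94 of 236 in Bcl2, 90 of 233 in Bcl2l1, 46 of 193 in Bcl2l2, 194 of 331 in Mcl1, 76 of 209 in Bak1 and 71 of 213 in Bok. In the BH3-only genes it begins at residue 150 of 196 in Bcl2l11, 90 of 195 in Bid, 55 of 150 in Bik and 151 of 204 in Bad.

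The comparison of PTBP1_KO with WT asked whether loss of Ptbp1 changed these genes. Ptbp1 fell from 230.0 to 123 FPKM, with a q-value of 0.0125 in the authors' deposited table, and FPKM is a fragment count scaled for transcript length and library size. The deposited table gives 1 FPKM per group, so no spread between libraries is known and neighbouring levels cannot be told apart by it. All 6 epithelial markers and all 5 crypt markers were measured, with summed levels of 3636 FPKM in WT and 3944 in PTBP1_KO for the epithelial list and 2184 and 3135 for the crypt list. The crypt sum rests on Lyz1, a Paneth cell gene, listed at 1471 and 2470 FPKM. Lgr5 was nearly equal, at 6.785 FPKM in WT and 6.775 in PTBP1_KO. The rest were listed lower in PTBP1_KO, with Olfm4 at 618 and 578 FPKM, Ascl2 at 7.64 and 7.21 and Mki67 at 80.9 and 72.8. No crypt marker passed the test. Immune markers summed to 80.4 FPKM in WT and 141 in PTBP1_KO, with 7 of 7 higher in PTBP1_KO and 2, Gzma and Cd8a, past the authors' q-value of 0.05. Stromal and muscle markers summed to 6.69 and 7.76 FPKM, mostly Vim (4.90 and 6.28), while the collagen genes Col1a1 (0.252 and 0.0997) and Col3a1 (0.749 and 0.328) were lower in PTBP1_KO with q-values of 0.61 and 0.212 in the authors' deposited table. Whether a different share of immune cells moves the values of the BCL2 family genes was not tested, and in bulk samples fewer cells of a type and less RNA per cell cannot be told apart.

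None of the 10 genes passed the test for a change in level. At a q-value below 0.05 in the authors' deposited table, 0 of the 10 passed, against 0.537% of the 15460 tested genes (83 genes), and every one of the 10 had a q-value of 0.999805. At an unadjusted p below 0.05, 0 of the 10 passed as well, against 4.35% of tested genes. Listed FPKM was higher in PTBP1_KO for 8 genes and lower for 2, while 54.7% of all tested genes were higher. The median log2((PTBP1_KO + 1)/(WT + 1)) was 0.11 over the 10 genes and 0.02 over all tested genes, and the 10 ratios ran from -0.06 to 0.23. At FPKM values within the range of these genes, 58 of 12320 tested genes passed, and the smallest fold change among those 58 was 0.57 on the log2 scale. The fold changes of all 10 were smaller, the largest being 0.23. Passing depends on the fold change, so genes that did not pass tend to lie below those that did. Of all tested genes, 70.5% had an absolute log2 fold change no larger than the largest of the 10.

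Among the survival genes, Mcl1 had the highest level. Mcl1 encodes a short-lived protein that intestinal epithelium needs for survival, and was listed at 76.6 FPKM in WT and 83.2 in PTBP1_KO (log2 fold change 0.12 and p = 0.434 in the authors' deposited table). Bcl2l2, which encodes BCL-W, was listed at 19.8 and 22.1 FPKM (log2 fold change 0.16 and p = 0.658 in the authors' deposited table). Bcl2l1, which encodes BCL-xL, was listed at 14.4 and 15.6 FPKM (log2 fold change 0.12 and p = 0.496 in the authors' deposited table). Bcl2, the founding member, was much lower, at 1.87 and 1.88 FPKM (log2 fold change 0.01 and p = 0.976 in the authors' deposited table). The order Mcl1, Bcl2l2, Bcl2l1, Bcl2 was the same in both groups.

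Bak1 had the highest level of the 10 genes. It encodes BAK, which sits in the mitochondrial outer membrane and forms the pore, and was listed at 148 FPKM in WT and 174 in PTBP1_KO. This was the smallest p of the set (log2 fold change 0.23 and p = 0.155 in the authors' deposited table), and the level in WT lay at the 96.0th percentile of tested genes. Bok, a pore former found largely outside mitochondria, was listed at 5.25 and 5.79 FPKM (log2 fold change 0.14 and p = 0.598 in the authors' deposited table).

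The BH3-only genes ran from Bad down to Bik. Bad, whose protein binds BCL-xL when it is not phosphorylated, was listed at 31.9 FPKM in WT and 37.6 in PTBP1_KO (log2 fold change 0.23 and p = 0.407 in the authors' deposited table). Bid, which links death receptors to mitochondria once caspase 8 has cut it, was listed at 7.60 and 7.26 FPKM (log2 fold change -0.07 and p = 0.828 in the authors' deposited table). Bcl2l11, which encodes BIM, was listed at 2.16 and 2.2 FPKM (log2 fold change 0.02 and p = 0.918 in the authors' deposited table). Bik, the lowest, was listed at 0.759 and 0.719 FPKM (log2 fold change -0.08 and p = 0.857 in the authors' deposited table). The highest WT level, of Bak1, was 195 times the lowest, of Bik.

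**Figure D1:**
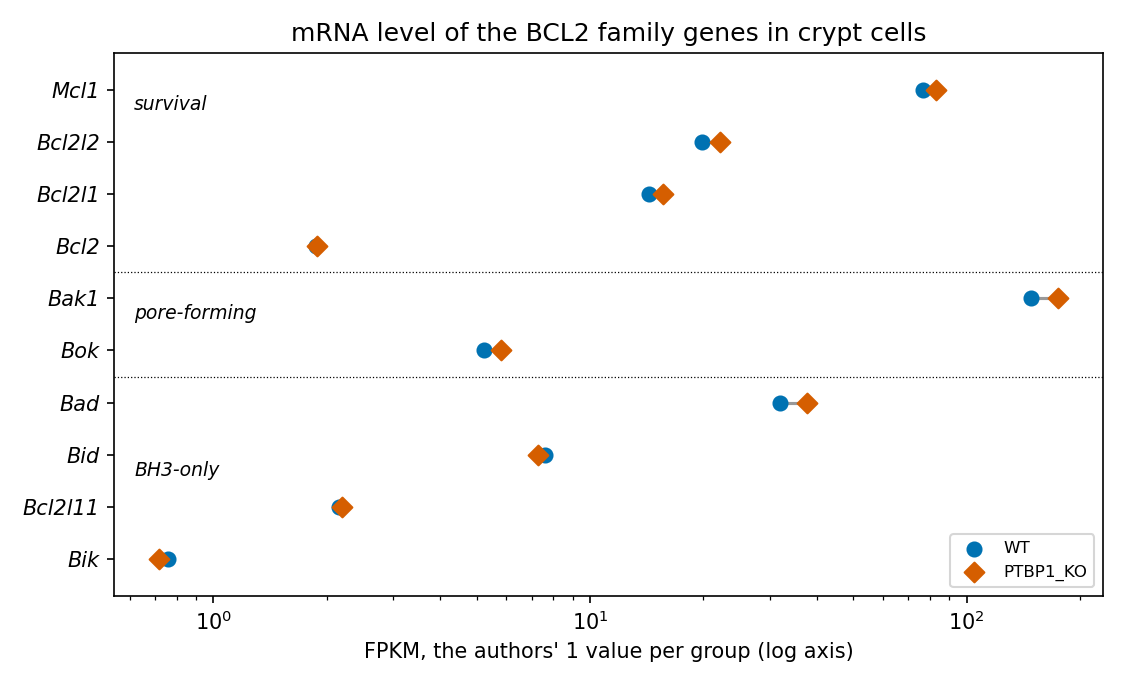
Level of each gene in FPKM on a log axis, with WT as circles and PTBP1_KO as diamonds, grouped by role, and no error bars because the deposited table gives 1 value per group. The pairs nearly coincide, from Bik at 0.759 and 0.719 FPKM to Bak1 at 148 and 174 FPKM.

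**Figure D2:**
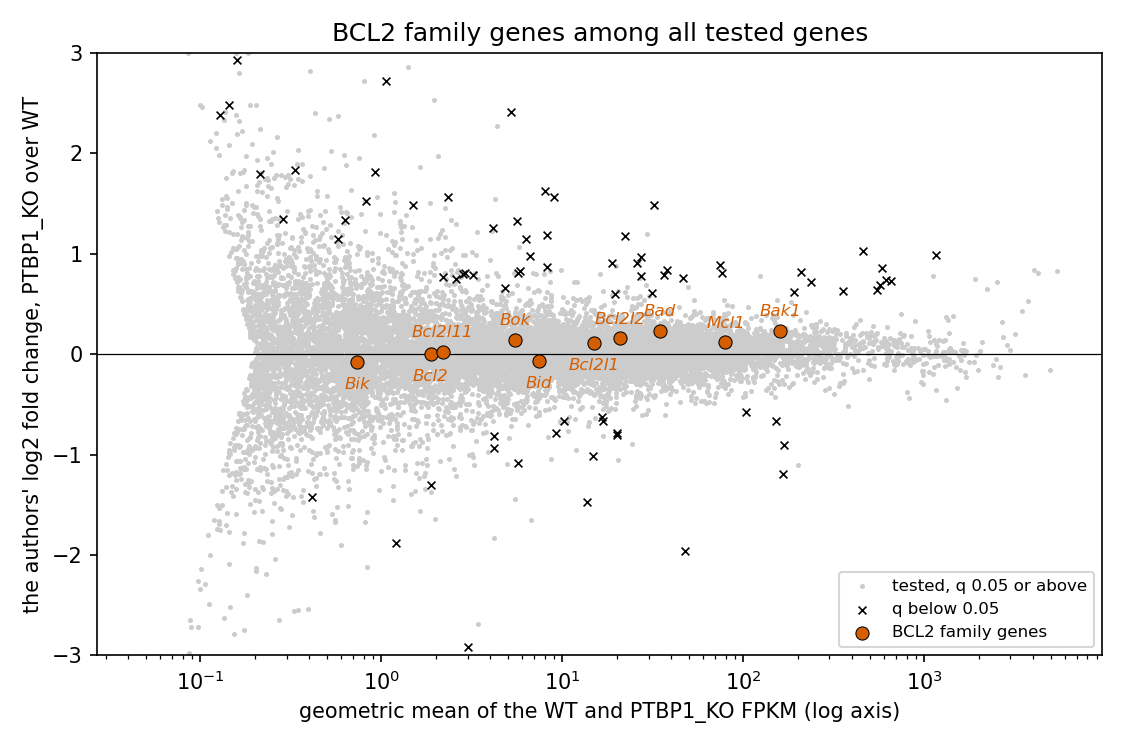
The authors' log2 fold change of PTBP1_KO over WT against the geometric mean FPKM (log axis) for 15433 tested genes with a value above 0 in both groups, of which 23 lie beyond the vertical axis. Crosses are genes with a q-value below 0.05, and the 10 BCL2 family genes lie between -0.08 and 0.23.

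Some of these genes share exonic bases with a neighbour, and whether reads of the neighbour enter their levels was not tested. In GENCODE M21, 25.5% of the exonic bases of Bak1 overlap Ggnbp1, 20.5% of Bad overlap Gpr137, 17.7% of Bid overlap Bcl2l13 and 6.09% of Bcl2 overlap D630008O14Rik, each on the opposite strand. Gm20521, on the same strand, covers 13.3% of the exonic bases of Bcl2l2. The kit keeps strand, but the strand setting of the counting is not given in the sources used here. The other five genes share no exonic base with another gene.

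Splicing was compared between a first and a second set of 3 libraries each. The columns give no genotype for these sets, so no direction by genotype can be given. The inclusion level is the share of transcripts with the alternative segment, recomputed for each library as reads per form length. Intervals are exact 95% binomial intervals and cover counting error only. The call rule asked for an FDR below 0.05 and an absolute difference in inclusion level (first set minus second) of at least 0.1, both from the authors' deposited table, with a mean of at least 20 reads over the 6 libraries. The 10 events fall in Bcl2l2 (1), Bcl2l11 (3), Bak1 (2) and Bid (4), and 9 of them reached 20 reads. Of those 9, 0 passed, against 1.56% of all 53918 events with that many reads. In the authors' deposited table the FDR was below 0.05 in 0 of the 9, and the unadjusted p was below 0.05 in 2, both in Bcl2l11 and sharing reads, against 10.3% of all such events. In 4 of the 9 every library lay above 95% inclusion, and in 1 every library lay below 5%.

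The Bak1 microexon, 20 nt at chr17:27021663-27021682 on the minus strand, was almost always skipped. Both junctions are printed because inclusion shifts the reading frame. The first line shows the microexon and the stop codon in capitals, and the second shows the same flanking exons joined directly.
Bak1 with the microexon: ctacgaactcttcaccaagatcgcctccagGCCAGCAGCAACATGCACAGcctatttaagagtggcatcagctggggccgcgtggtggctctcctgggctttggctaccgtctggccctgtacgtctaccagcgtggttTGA
Bak1 without the microexon: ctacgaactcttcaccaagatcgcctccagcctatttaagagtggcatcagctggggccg
With the microexon the frame ends 89 nt further on, and that stop lies 89 nt before the last exon junction. GENCODE M21 annotates the transcript as a target of nonsense-mediated decay, with 151 codons in place of the 209 of BAK. Its BH3 core lies before the microexon.

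Reads with the microexon numbered 3, 2 and 2 in the first set, beside 976, 1184 and 1119 skipping reads. In the second set they numbered 1, 0 and 0, beside 850, 786 and 946. Inclusion levels were 0.269%, 0.148% and 0.157% in the first set and 0.103%, 0% and 0% in the second. For the 2 libraries with no such read, a count of 0 allows a share of up to 0.382% and 0.317% of reads. The sets did not overlap, as in 9.15% of all events with reads in every library, and the authors' deposited table lists a difference of 0.002 and p = 1. Over the 6 libraries, 8 of 5869 reads held the microexon, which is 0.136% (interval 0.0589% to 0.268%). The share was 0.213% (0.0857% to 0.438%) in the first set and 0.0387% (0.00098% to 0.216%) in the second, and these intervals overlap. At this depth the exon was at the edge of detection in both sets. Of the 661 skipped exons of at most 30 nt with enough reads, 52 passed the call rule, and 97, this one included, lay below 5% in every library.

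The other Bak1 event is a pair of 3' splice sites 5 nt apart, at chr17:27022873-27022877. Here the 5 nt are in capitals, between the end of the exon before and the rest of the exon.
Bak1 upstream 3' site: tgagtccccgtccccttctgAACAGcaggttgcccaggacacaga
The upstream site was used almost always. Inclusion of the 5 nt was 99.8%, 99.8% and 99.5% in the first set and 100.0%, 99.7% and 99.5% in the second, over 2200 to 3268 reads a library. The annotated transcript without the 5 nt has 79 codons, no BH3 core in frame and the label of nonsense-mediated decay. Just 45 of its reads were counted in all, against 15576 for the longer form.

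Bcl2l11 had reads of more than 1 form in each of its 3 events. Its forms BimEL, BimL and BimS differ by coding segments between the start codon and the BH3 core, and the shorter forms are known as stronger killers. A 168 nt segment at chr2:128128757-128128924, plus strand, is kept in BimEL (196 codons) and removed from BimL (140 codons). The next 90 nt, at chr2:128128925-128129014, are also left out of BimS (110 codons). Both are shown because they carry every event listed for the gene, and the GT and AG that end the removable segment are in capitals.
Bcl2l11 168 nt segment: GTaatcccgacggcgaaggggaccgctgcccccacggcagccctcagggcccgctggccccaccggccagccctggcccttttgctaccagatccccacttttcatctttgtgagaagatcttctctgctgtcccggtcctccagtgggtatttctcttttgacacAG
Bcl2l11 90 nt segment: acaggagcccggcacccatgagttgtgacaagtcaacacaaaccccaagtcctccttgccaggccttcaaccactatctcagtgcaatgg
Both lengths are multiples of 3, so BimEL, BimL and BimS keep the frame and the BH3 core.

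The 168 nt segment was included at 67.1%, 61.8% and 58.6% in the first set and at 54.3%, 100% and 43.9% in the second. The counts were low, at 38, 45 and 57 reads in the first set and 25, 25 and 35 in the second. The highest and the lowest library both lay in the second set, around the 3 of the first. In the authors' deposited table the difference was -0.036, with p = 0.66 and an FDR of 0.995, so a difference between the sets was not detectable at this depth. Both forms were present in 5 of the 6 libraries.

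The 90 nt segment was included at 93.1%, 100% and 83.7% in the first set and at 100%, 85.4% and 59.3% in the second. Counted jointly with the 168 nt segment, as 258 nt left out of BimS, inclusion was 94.5%, 100% and 88.1% in the first set and 100%, 88.7% and 54.6% in the second. BimL also holds the 90 nt, so reads on that part do not tell BimEL from BimL. The sets overlap in both events, and apart from the lowest library the levels were 83.7% or higher. In the authors' deposited table the difference was 0.107 for the 90 nt (p = 0.0293, FDR 0.374) and 0.131 for the 258 nt (p = 0.0146, FDR 0.169). The events are not independent, since both count the same 17 skipping reads, which numbered 1, 0 and 3 in the first set and 0, 2 and 11 in the second. The library listed last in the second set thus gave 11 of the 17. Without it the difference was -0.00429 for the 90 nt and -0.00169 for the 258 nt.

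**Figure D3:**
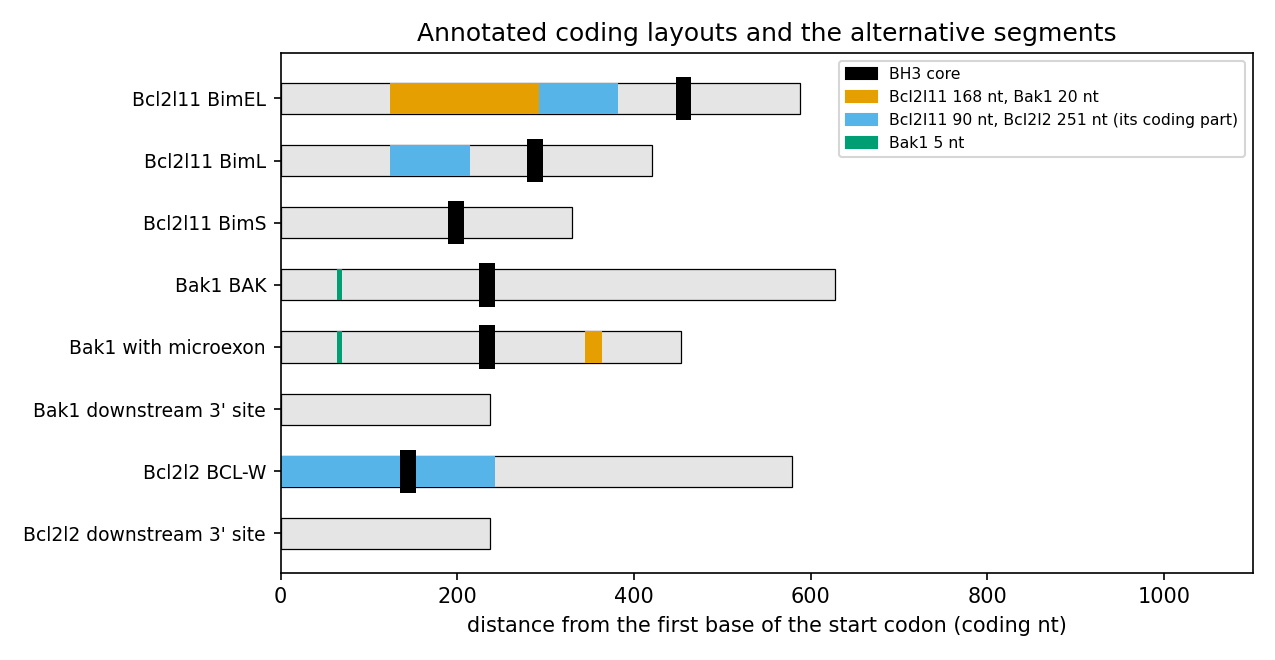
Coding sequence of annotated forms of Bcl2l11, Bak1 and Bcl2l2, drawn to scale from the start codon in coding nt, with the BH3 core in black and the alternative segments in colour. The 3 Bcl2l11 forms of 588, 420 and 330 coding nt all hold the core, while the Bak1 and Bcl2l2 forms made from the downstream 3' sites, of 237 coding nt each, do not.

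Bid had 4 events, and its main form dominated. The 140 nt exon at chr6:120897220-120897359, minus strand, holds the BH3 core, and it was included at 97.9%, 100% and 100% in the first set and at 100% in each library of the second, over 183 to 238 reads. The 211 nt exon before it, at chr6:120900156-120900366, was included at 100%, 98.2% and 100% in the first set and at 100% in each library of the second, over 218 to 300 reads. Each exon was skipped by 2 reads in all, and p was 1 for both in the authors' deposited table.

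The same 2 exons are also listed as mutually exclusive, with levels of 53.3%, 51.0% and 64.4% in the first set and 49.3%, 56.4% and 66.8% in the second. That event counts reads on 1 exon against reads on the other, and the exons were each included in nearly every read counted when tested alone. The spread within a set was larger than the difference of -0.013 in the authors' deposited table (p = 0.793, FDR 1). A 66 nt exon, of which 12 nt are coding, had 3 to 17 reads a library and stayed below the read minimum.

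Bcl2l2 had 1 event, a choice between 3' splice sites 251 nt apart at chr14:54884374-54884624, plus strand. The 251 nt hold the start codon and the BH3 core of BCL-W, and 243 of them are coding. The annotated form without them starts further on and has 79 codons in place of 193. The longer form made up 97.5%, 98.1% and 98.3% in the first set and 100%, 98.2% and 96.0% in the second, over 303 to 486 reads. The first set lay within the range of the second, and the difference in the authors' deposited table was -0.001 (p = 0.831, FDR 1).

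**Figure D4:**
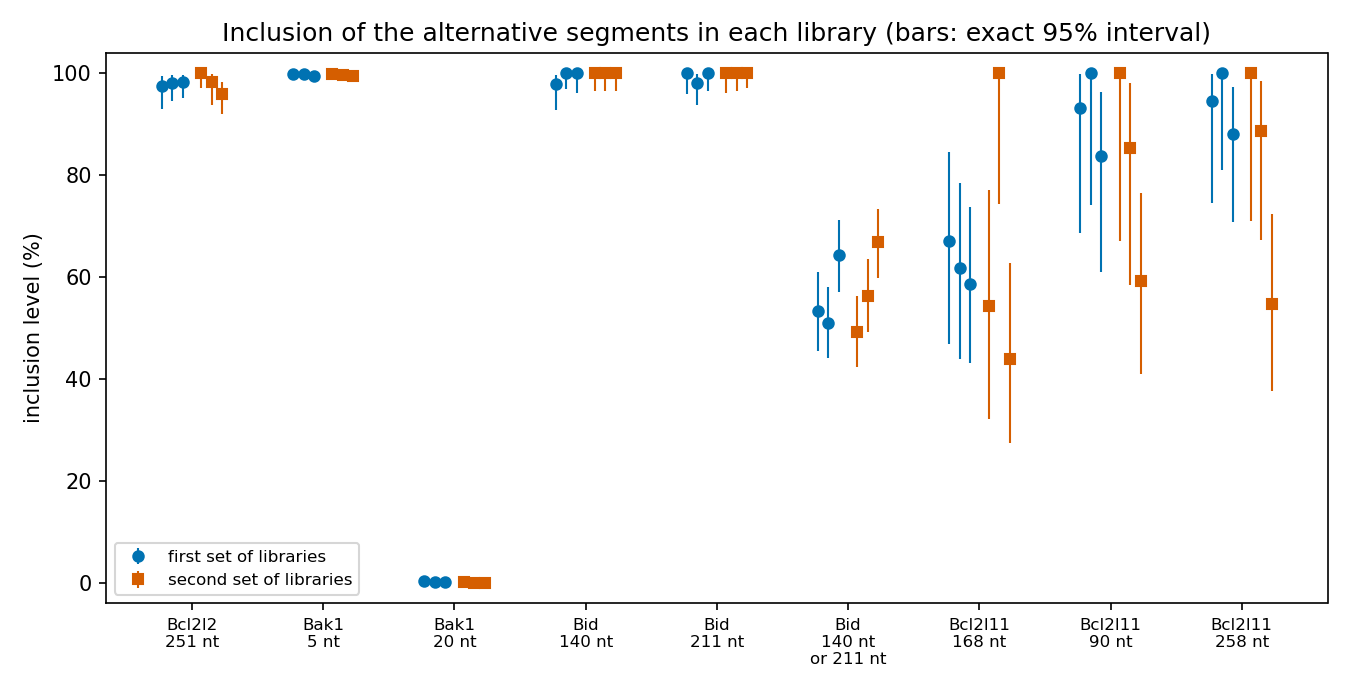
Inclusion level in percent of the 9 alternative segments with enough reads, 1 point per library, circles for the first and squares for the second set of libraries, with exact 95% intervals. The points sit near 100% or 0% for Bcl2l2, Bak1 and the skipped exons of Bid, and spread from 43.9% to 100% for Bcl2l11.

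The other six genes, Bcl2, Bcl2l1, Mcl1, Bok, Bik and Bad, have no event in the tables, so their splicing was not analysed here. Bcl2l1 and Mcl1 are textbook cases, with the forms Bcl-xS, from a 5' splice site inside the coding exon, and MCL-1S, from skipping of exon 2. GENCODE M21 holds 9 transcripts of Bcl2l1 with 1 junction that starts in coding sequence, and 2 of Mcl1 with 0 of 3 junctions passing over exon 2. Neither of those sites is therefore in that annotation, and which annotation the event tables used is not given in the sources used here.

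The surrounding apoptosis pathway gave the same picture for mRNA levels. Of 54 listed genes, 51 were tested, with 30 higher and 21 lower in PTBP1_KO, and 0 passed a q-value of 0.05. The median log2 ratio was 0.04, beside 0.02 over all tested genes. Among the other BCL2 family genes, 9 of 12 tested were higher. Bax, the pore former most like Bak1, was listed at 67.4 FPKM in WT and 80.4 in PTBP1_KO, the highest ratio in that list among genes of at least 5 FPKM (log2 fold change 0.25 and p = 0.512 in the authors' deposited table), and Bcl2l14 had the lowest among such genes, at 29.1 and 25.0 FPKM. Bbc3, which encodes the BH3-only protein PUMA, was listed at 2.50 and 4.36 FPKM (log2 fold change 0.80, p = 0.0123 and q-value 0.583 in the authors' deposited table). It was the 1 gene of the 51 tested with an unadjusted p below 0.05, against 4.35% of all tested genes. It was named after its values were seen.

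The remaining lists held both directions, and the genes named are those with the highest or lowest ratio among genes of at least 5 FPKM. Of the mitochondrial partners, 7 of 11 were higher, with Opa1, which shapes the inner membrane, at 26.8 and 32.4 FPKM and Dnm1l, the fission GTPase, at 47.3 and 46.0. The apoptosome and caspase list split 5 to 5, with Casp8, an initiator, at 59.8 and 54.6 FPKM. Inhibitors of apoptosis split 4 higher and 6 lower, with Naip2 at 12.4 and 14.1 FPKM and Birc5 (survivin) at 130 and 118. Of the death receptors and adaptors 5 of 8 were higher, with the receptor Tnfrsf1a at 46.5 and 53.7 FPKM and the kinase Ripk1 at 16.9 and 13.8. None of these genes passed the test.

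Splicing in a few genes of the same pathway differed between the sets. Of 279 events with enough reads in 42 pathway genes, 7 (2.51%) passed the call rule, against 1.56% of all events, and they lie in 4 genes, Mff, Opa1, Htra2 and Casp2. The 7 are not independent: 2 of the Mff events hold the same exon, 2 have the same 1171 skipping reads, and the 2 events of Htra2 have the same 66. Whether the share of called events differs between the pathway and the 10 genes was not tested.

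Mff encodes the mitochondrial receptor for the fission GTPase, and 3 of the 7 events lie in 2 of its exons. Its 159 nt exon at chr1:82741818-82741976 was included at 34.4%, 32.4% and 34.9% in the first set and at 14.7%, 14.2% and 16.2% in the second (difference 0.189, with an FDR listed as 0, in the authors' deposited table). That event takes transcripts without the 60 nt exon that follows. In the event with the 60 nt exon as the next exon, inclusion was 83.2%, 64.5% and 72.6% in the first set and 60.7%, 49.9% and 61.5% in the second (difference 0.161, FDR 0.0311 in the authors' deposited table). The 111 nt exon of Opa1 at chr16:29597586-29597696 was included at 72.7%, 71.0% and 78.6% in the first set and at 54.98%, 60.9% and 55.2% in the second (difference 0.171, FDR 1.18e-07 in the authors' deposited table). Both lengths are multiples of 3.

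Htra2 encodes a protease released from mitochondria that degrades inhibitors of apoptosis. Its 29 nt exon at chr6:83052698-83052726 was included at 98.0%, 88.6% and 93.7% in the first set and at 82.7%, 70.4% and 78.8% in the second (difference 0.161, FDR 0.000417 in the authors' deposited table). Casp2 encodes an initiator caspase whose 61 nt exon separates its long from its short form. That exon, at chr6:42276870-42276930, was included at 29.9%, 21.5% and 29.2% in the first set and at 9.20%, 9.12% and 13.7% in the second (difference 0.162, FDR 7.2e-08 in the authors' deposited table). The genotype of the sets is again not named.

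**Figure D5:**
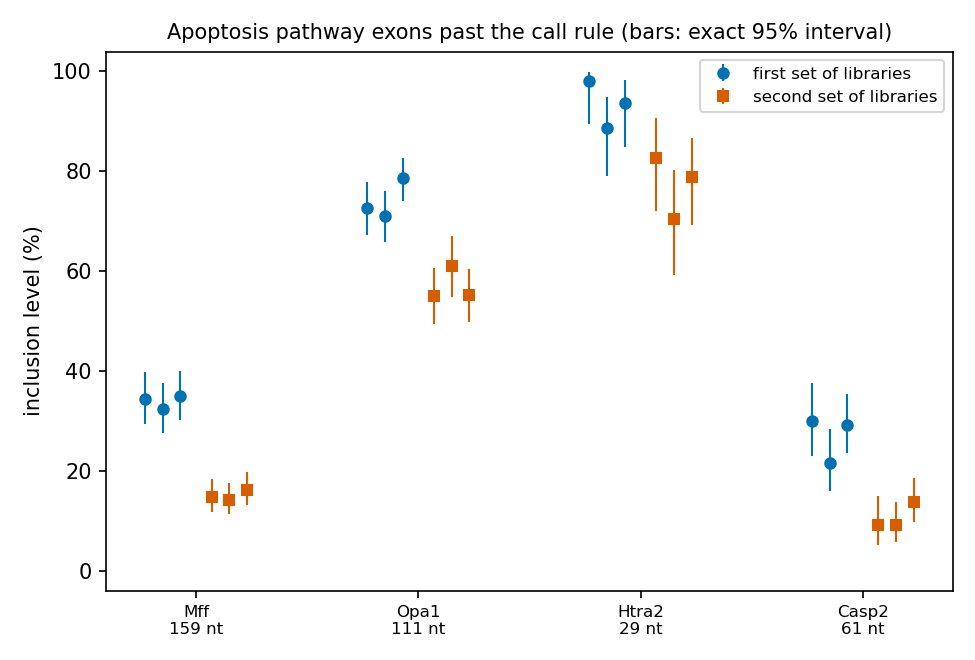
Inclusion level in percent of the exon with the smallest p in each of the 4 pathway genes with a called event, 1 point per library, circles for the first and squares for the second set, with exact 95% intervals. In each gene the 3 libraries of the first set lie above the 3 of the second, from 32.4% or more against 16.2% or less for Mff. The exons were picked by their difference between these same sets, so the separation adds no support to the call. Of all events with enough reads and with reads in every library, 9.15% had sets that did not overlap.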

How the data were processed

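RNA of 6 crypt cell libraries was sequenced, polyA-selected with a stranded kit, per the labels' protocols. The submitters' processing notes name bcl2fastq 2.20, Trimmomatic 0.38, STAR 2.6.1d, Cufflinks and Cuffdiff, and mm10. The deposited gene table holds 1 FPKM per group, and the authors' log2 fold change, p-value and q-value per gene, so its depth is unknown. The deposited splicing tables hold inclusion and skipping reads per library, form lengths and the authors' p-value, FDR and difference. Their 10 columns of ready-made inclusion levels were not used.

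Groups came from the sample titles. Log2 ratios used a pseudocount of 1 FPKM. Inclusion levels were recomputed from reads and form lengths with Python 3.11.15, pandas 2.3.3 and scipy 1.17.1, and gave differences within 0.00112 of those of the authors. A run on simulated reads checked the computation only, since the reads were drawn with the same formula. It used skipped exons of intermediate inclusion, with no variation between libraries beyond counting error. Annotation and sequences came from GENCODE M21 on mm10, translated with Biopython 1.88.

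The rule for named genes took all 10 members, and from each pathway list genes with a q-value below 0.05 and the highest and lowest ratio among genes of at least 5 FPKM. The result for 1 gene that the rule names is not reported here. From called pathway events it took 1 per gene, and every member event is described. Members and lists were chosen with earlier results of these data known. Nothing says whether libraries came from separate mice, so p-values measure the spread between these libraries.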

Additional observations from a re-analysis of the deposited data

Results flagged for a closer look

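Of 9 BCL2 family events with enough reads, 3 had 1 library far from the other five, by the gap to the nearest library relative to the range over all 6 libraries of both sets. For values drawn from 1 normal distribution, chance gives such a gap in about 1 in 20 groups. For the 258 nt segment of Bcl2l11 the lowest library lay at 54.6%, with the next at 88.1%. For the 140 nt exon of Bid the lowest library lay at 97.9%, and for the 211 nt exon at 98.2%, each with the other libraries at 100% and 2 skipping reads behind the gap. With those libraries at the 100% ceiling, any library with a skipping read stands apart in this way, so that rate does not apply to the Bid exons. For the 258 nt segment of Bcl2l11 some libraries also lay at 100%, so that rate need not hold there either.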

How the results depend on the processing

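No paired analysis was possible because the gene table gives 1 value per group and the splicing tables do not tie their libraries to samples, so a replicate block could not be fitted. No BCL2 family gene passed at a q-value below 0.1, at an unadjusted p below 0.05 or with at least 1 FPKM. With every q-value of these genes at 0.999805, the q-value of 0.1 and the 1 FPKM minimum could not have let a gene pass. No BCL2 family event passed with a difference of 0.05 or 0.2, a mean of 10 or 50 reads, 20 reads in every library, merged regions or FDR alone. Each of these rules kept an FDR below 0.05, and the lowest FDR of a BCL2 family event was 0.169, so none could have passed. Of the 9 BCL2 family events with enough reads, 2 had an unadjusted p below 0.05, against 10.3% of all such events. Of the 51 tested pathway genes, 1 had an unadjusted p below 0.05, against 4.35% of all tested genes. Of the 279 pathway events with enough reads, 1 passed with a difference of at least 0.2 and 14 passed by FDR with no minimum difference. An unadjusted p below 0.05 was found in 41 of them, against 10.3% of all events with enough reads. Shares of all events under the other alternative rules were not computed, and pathway events can share reads. The alternatives on FDR without a minimum difference and on unadjusted p of events, and on 20 reads in every library for pathway events, were chosen after seeing the data. The cause of these shifts is the rule itself. Over 30 alternatives of pseudocount and centring, 0 log2 ratios of the 10 genes moved by 0.1 or more, and 1, of Bcl2 after centring on the median gene, changed sign. Centring subtracted the same 0.0166 from each ratio and so could not reach that bound. The largest shift under any alternative was 0.0455. Over 72 alternatives for the inclusion differences (summed reads, no division by form length, each library left out), 15 changed sign or reached 0. Of the 72, 0 moved by more than the spread within the sets. Leaving out 1 library cannot move a difference by that much, so those alternatives could not have counted as moved. Without the last library of the second set, the Bcl2l11 difference went from 0.107 to -0.00429 for the 90 nt segment. For the 258 nt segment it went from 0.131 to -0.00169. Levels of 1 value per group give no error, and 14 to 65 reads a library in Bcl2l11 leave wide intervals.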
